A study of Mus musculus with 2 samples.

Results

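Arterial endothelial cells were 191 of the 4581 lung cells kept from 2 single-cell libraries, 20 from the Cherry_positive library and 171 from the Cherry_negative one. They were picked cell by cell from raw counts of UMIs, the tags that count single RNA molecules. A cell was endothelial when the UMIs of Pecam1, Cdh5, Cldn5, Egfl7 and Ramp2 summed to at least 4 and exceeded the sum of the fibroblast genes Col1a1, Col1a2, Col3a1 and Dcn. It was arterial when the 7 genes Gja5, Gja4, Bmx, Dkk2, Efnb2, Edn1 and Hey1 summed to at least 2 UMIs and to more than each of 4 other sums. Those sums marked general capillary cells (Aplnr, Plvap, Kit, Pcdh17), Car4 capillary cells (Car4, Ednrb, Apln, Chst1, Fibin), veins (Vwf, Slc6a2, Nr2f2, Prss23, Bst1) and lymphatics (Prox1, Mmrn1, Flt4, Reln). The cells were thus chosen by the values of these genes, and the levels of these genes are given as a description only.

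Both libraries held CD45-negative cells, which lack the surface protein of leukocytes, from dissociated mouse lungs collected 7 days after intravenous injection of labelling 4T1 cells. 4T1 cells derive from a mammary carcinoma of the mouse and seed the lung after such an injection. Their labelling form is known to release a cell-penetrating mCherry protein that nearby cells take up, so that sorting by flow cytometry separates Cherry_positive from Cherry_negative cells of lungs with tumour cells. All cells of both groups came from injected lungs, and no uninjected lung entered the comparison. The labels give no strain, age or number of mice and do not say whether the animals had been irradiated, which the title of the series mentions. Each group was 1 library, so no test was possible, and every difference compares these 2 libraries.

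Arteries carry blood at high pressure, and their endothelium differs from that of capillaries in ways that are laid down early in development. Notch signalling is central to this: the ligand Dll4 and the receptors Notch1 and Notch4 act between neighbouring endothelial cells, and Hey1 is a transcription factor switched on by Notch. Efnb2, or ephrin B2, marks arterial against venous endothelium. Gja4 and Gja5 encode connexin 37 and connexin 40, which form the gap junctions that carry signals along the arterial wall. Edn1 encodes endothelin 1, a strong vasoconstrictor peptide. Fibulins and elastin build the elastic fibres of larger arteries.

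The Cherry_positive library held 1826 barcodes and 10094853 UMIs, and the Cherry_negative library 2861 barcodes and 11632459 UMIs, of which 13 barcodes occurred in both and 1 of those was arterial. The doublet caller Scrublet marked 0.226% and 0.249% of cells and no arterial cell, below the 2% it was set to expect. How well the caller worked was not tested. The marked cells were kept, and further doublets may remain. Arterial cells held a median of 2965 UMIs in Cherry_positive and 2381 UMIs in Cherry_negative, and 61929 against 476165 UMIs in sum. The Cherry_positive sum is therefore a limit of every comparison between the libraries: at an equal level, a gene with 30 UMIs in both sums together would have 3.45 of them in it. A count of 3 UMIs, the floor used for genes at 0, equals 48.4 CPM, that is counts per 1000000 UMIs of the class, in Cherry_positive and 6.30 CPM in Cherry_negative.

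Arterial cells made up 7.75% of the 258 endothelial cells of the Cherry_positive library (exact binomial 95% interval, 4.80 to 11.7%) and 11.1% of the 1545 of the Cherry_negative library (9.55 to 12.7%). The intervals, which like all those given here cover counting error only, overlap. Of all kept cells they were 1.13% (0.692 to 1.74%) and 6.08% (5.23 to 7.03%). The second pair of shares is tied to the makeup of each sort, in which mesenchymal cells were 68.6% of Cherry_positive and 22.3% of Cherry_negative cells. Among the other endothelial cells, general capillary cells were the most numerous, with 99 cells in Cherry_positive and 783 cells in Cherry_negative, followed by Car4 capillary cells with 89 and 350 cells.

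Most arterial cells stood clear of the threshold of the rule, while the margin over the next sum, mostly that of general capillary cells, was narrow for some. The arterial sum had a median of 11 UMIs in Cherry_positive and 8 UMIs in Cherry_negative cells, and it was 2 or 3 UMIs in 0 of 20 and in 14 of 171 cells. The next largest sum was that of general capillary cells in 18 of 20 Cherry_positive and 134 of 171 Cherry_negative cells. The next largest sum fell short by a single UMI in 2 and 33 cells, and by 3 or more UMIs in 12 and 104 cells. Just outside the rule were 3 Cherry_positive and 47 Cherry_negative endothelial cells whose arterial sum tied with another sum, and 8 and 60 whose arterial sum was 1 UMI under the largest. Plvap, the diaphragm protein of fenestrated and general capillary endothelium, was seen in 19 of 20 Cherry_positive and 147 of 171 Cherry_negative arterial cells.

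Gja4 and Edn1, the genes seen in most arterial cells of both libraries, had overlapping intervals in them. Gja4 (chromosome 4, 127311421 to 127314039, minus strand, build mm10 as in GENCODE M21) had 1130.3 CPM in Cherry_positive arterial cells (exact Poisson 95% interval, 881 to 1428 CPM) and 1035 CPM in Cherry_negative ones (946 to 1131 CPM). It was seen in 16 of 20 and 120 of 171 of these cells, against 18.9% and 27.2% of other endothelial cells. Edn1 (chromosome 13, 42301476 to 42307990, plus strand) had 1259.5 CPM (996 to 1572 CPM) in Cherry_positive and 1499 CPM (1392 to 1614 CPM) in Cherry_negative arterial cells. In other endothelial cells Edn1 had 133 CPM and 177 CPM.

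Gja5 helped to choose the cells, so its levels are a description. Gja5 (chromosome 3, 96904693 to 97077416, plus strand) had 371 CPM (235 to 557 CPM) in Cherry_positive arterial cells and 151 CPM (118 to 190 CPM) in Cherry_negative ones. It was seen in 12 of 20 and in 38 of 171 cells. After every cell was thinned to 2000 UMIs, which left 18 and 104 cells, the shares were 38.9% and 23.1%. Mesenchymal cells also held Gja5, at 30.04 CPM in Cherry_positive and 68.8 CPM in Cherry_negative, so a low level of it is not particular to endothelium in these data.

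Hey1 had 436 CPM (287 to 634 CPM) in Cherry_positive and 470 CPM (411 to 536 CPM) in Cherry_negative arterial cells. Efnb2 had 323 CPM (197 to 499 CPM) and 454 CPM (395 to 518 CPM). For both genes the intervals of the libraries overlap. Bmx, a cytoplasmic tyrosine kinase of arterial endothelium and endocardium, was rare, with 1 UMI in Cherry_positive and 27 UMIs in 20 Cherry_negative arterial cells. Dkk2, a secreted Wnt modulator, was not seen in the 20 Cherry_positive cells, where its interval reaches up to 59.6 CPM, and had 7 UMIs in 3 Cherry_negative cells.

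**Figure D1:**
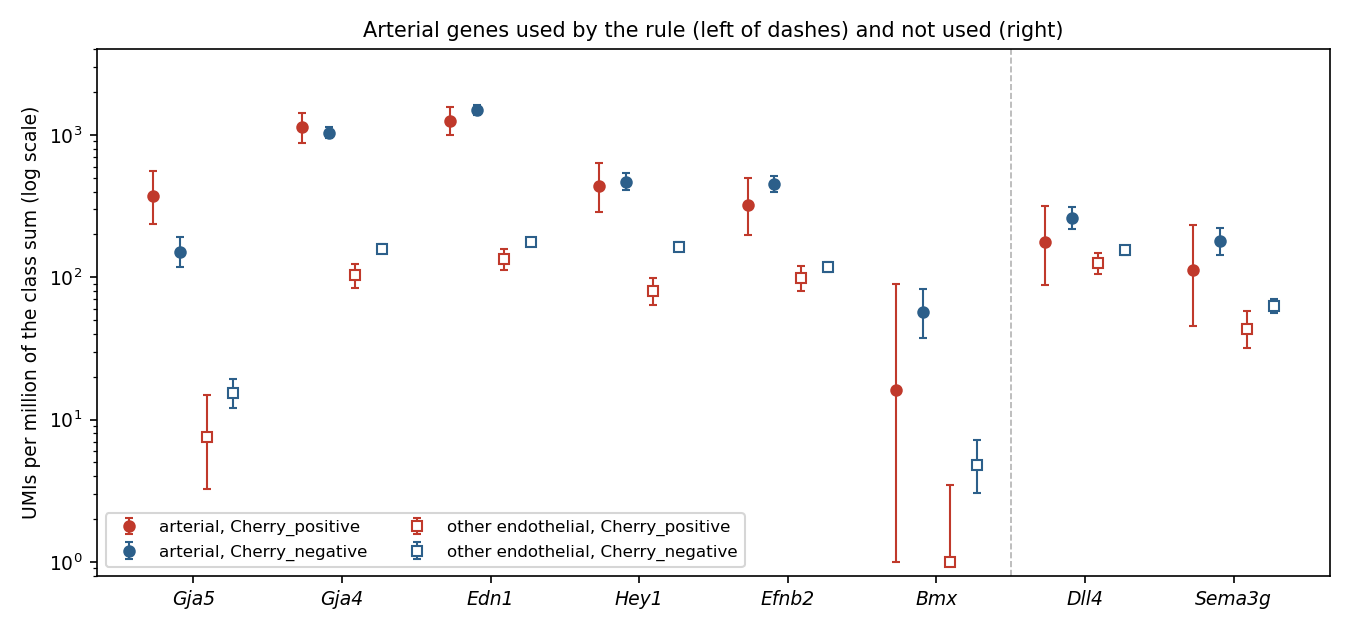
Level of arterial genes in CPM of the class sum (log axis) in arterial cells (filled circles) and other endothelial cells (open squares) of the Cherry_positive (red) and Cherry_negative (blue) library; bars are exact Poisson 95% intervals, cut at 1, and Bmx at 0 UMIs is drawn at 1. Gja5 is at 371 and 151 CPM in arterial cells and the 2 genes right of the dashed line, which did not choose the cells, sit closer to the other endothelial cells.

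Dll4 and Sema3g, arterial genes that the rule did not use, were higher in arterial cells of the Cherry_negative library, while the intervals overlap in the Cherry_positive library. Dll4 had 178 CPM (88.7 to 318 CPM) in Cherry_positive arterial cells against 126 CPM (105 to 149 CPM) in other endothelial cells, with overlapping intervals. In Cherry_negative cells it had 263 CPM (219 to 313 CPM) against 155 CPM (144 to 167 CPM). Sema3g, a secreted semaphorin of arterial endothelium, had 113 CPM (45.4 to 233 CPM) against 43.5 CPM (31.9 to 58.0 CPM) in Cherry_positive, and 179 CPM (143 to 221 CPM) against 62.8 CPM (55.9 to 70.3 CPM) in Cherry_negative. General capillary cells came nearer than the other endothelial cells as a whole, with 161 CPM of Dll4 in Cherry_positive and 198 CPM in Cherry_negative, and 80.3 CPM and 99.5 CPM of Sema3g. Dll4 was seen in 8 of 20 and 76 of 171 of arterial cells, against 0.494% and 1.6% of mesenchymal cells, which should lack it and which had median depths of 4777 and 3276.5 UMIs. In general capillary cells it was seen in 36.4% and 40.2%, near the arterial 40% and 44.4%. After thinning, the arterial shares were 33.3% and 29.8% and the general capillary ones 22.3% and 31.0%.

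A list of 35 arterial genes outside the rule was higher in arterial than in other endothelial cells of both libraries. The median of the members' log2 ratios, each count raised by 0.5, was 0.82 over 27 measured members in Cherry_positive and 1.10 over 32 members in Cherry_negative, against medians of 0.12 and 0.08 over all genes. Of the members 21 and 27 were higher, where 55.4% and 56.8% of all genes were. In Cherry_positive 13 members were at least 2-fold higher and 2 at least 2-fold lower, where 18.8% and 13.7% of all genes with 10 UMIs or more were. In Cherry_negative 18 were at least 2-fold higher and 4 at least 2-fold lower, against 7.43% and 10.5% of all genes. Since the cells were chosen by arterial transcripts, these numbers describe the class and test nothing. Scaling by trimmed means would add -0.27 to every log2 ratio in Cherry_positive and -0.09 in Cherry_negative.

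Over all genes with at least 30 UMIs, arterial cells had at least 2-fold more than other endothelial cells for 401 of 4958 genes in Cherry_positive (8.09%) and 338 of 9414 genes in Cherry_negative (3.59%). At least 2-fold less was found for 651 genes in Cherry_positive (13.1%) and 665 genes in Cherry_negative (7.06%). The genes named next were ranked in the Cherry_negative library, the deeper one, by whichever bound of the ratio's interval lies closer to 1. Cherry_positive values stand beside them as a second library.

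Cxcl12, the chemokine that holds CXCR4-bearing cells in place, and Atp13a3, a polyamine transporter, were higher in arterial than in other endothelial cells of both libraries. Cxcl12 (chromosome 6, 117168535 to 117181367, plus strand) had 791 CPM in arterial cells against 78.5 CPM in other endothelial cells of Cherry_positive, a ratio of 10.1 (6.93 to 14.5). In Cherry_negative it had 999.7 CPM against 136 CPM, a ratio of 7.36 (6.53 to 8.30). It was seen in 17 of 20 and 96 of 171 arterial cells. Mesenchymal cells held 370 CPM of Cxcl12 in Cherry_positive and 263 CPM in Cherry_negative. Atp13a3 (chromosome 16, 30312423 to 30405975, minus strand) had 371 CPM against 27.4 CPM in Cherry_positive, a ratio of 13.5 (7.48 to 24.2), and 288 CPM against 34.1 CPM in Cherry_negative, a ratio of 8.44 (6.67 to 10.7). No single cell held over 26.1% of the arterial UMIs of either gene.

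Slc6a6, the taurine transporter, Pcsk5, a proprotein convertase, and the transcription factors Mecom and Gata6 were also higher in arterial than in other endothelial cells of both libraries. Slc6a6 had a ratio of 11.4 (5.001 to 24.98) in Cherry_positive and 6.28 (4.75 to 8.27) in Cherry_negative. It had 194 CPM in arterial and 75.0 CPM in mesenchymal cells of Cherry_positive, and 183 CPM and 134 CPM in those of Cherry_negative. Pcsk5 rested on 6 arterial UMIs in Cherry_positive and had a ratio of 4.73 (3.18 to 6.93) in Cherry_negative. Mecom had ratios of 5.46 (2.13 to 12.5) and 4.09 (3.04 to 5.45). It had 129 CPM in arterial and 18.9 CPM in epithelial cells of Cherry_positive, and 143 CPM and 118 CPM in those of Cherry_negative. Gata6 had ratios of 6.10 (1.72 to 17.9), with 5 UMIs in 2 arterial cells, and 4.26 (3.06 to 5.86). Of the general capillary, Car4 capillary and venous cells of Cherry_negative, Mecom and Gata6 were lowest in Car4 cells, with 6.17 CPM and 5.40 CPM, and venous cells had 76.1 CPM and 60.1 CPM. Pdlim3, an actinin-binding LIM protein, and Cthrc1, a secreted collagen-related protein, had 5 UMIs each in Cherry_positive arterial cells and ratios of 4.95 (3.18 to 7.56) and 4.34 (3.09 to 6.01) in Cherry_negative. In Cherry_negative they had 71.4 CPM and 113 CPM in arterial cells, near the 66.1 CPM and 124 CPM of venous cells.

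A further set was counted mainly in Cherry_negative arterial cells. Fbln2, a fibulin of elastic matrix, had 22 UMIs there (ratio 7.62, 4.17 to 13.7), Pi16, a peptidase inhibitor, 30 UMIs (9.41, 5.53 to 15.99) and Sulf1, an extracellular sulfatase, 30 UMIs (10.04, 5.85 to 17.2). Each had 1 UMI in Cherry_positive arterial cells, too few to tell their level there from that in Cherry_negative. In Cherry_negative mesenchymal cells Pi16 was at 496 CPM, against 63.0 CPM in arterial ones. Fbln2 and Sulf1 were at 35.3 CPM and 29.7 CPM in those mesenchymal cells, against 46.2 CPM and 63.0 CPM in arterial ones. Cytl1, a secreted cytokine-like protein, had 97 UMIs in 8 Cherry_negative arterial cells, a ratio of 6.76 (5.17 to 8.81), with 204 CPM in arterial cells against 208 CPM in venous ones. The gene 8430408G22Rik had 96.9 CPM in arterial against 74.7 CPM in other endothelial cells of Cherry_positive, and 544 CPM against 95.8 CPM in Cherry_negative. Meg3, an imprinted noncoding RNA, had 20 UMIs in 4 Cherry_negative arterial cells, 45% of them in 1 cell, and none in Cherry_positive. Its level was 42.0 CPM in Cherry_negative arterial and 236 CPM in mesenchymal cells.

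Mgp, matrix Gla protein, an inhibitor of calcification, was 2.11 times as high in arterial as in other endothelial cells of Cherry_positive (1308 CPM against 619 CPM) and 4.34 times as high in Cherry_negative (1258 CPM against 290 CPM). Venous cells had 1473 CPM of it in Cherry_positive and 1064 CPM in Cherry_negative. Mesenchymal cells held 15282 CPM of it in Cherry_positive and 7906 CPM in Cherry_negative, and a single cell held 40.2% of the Cherry_negative arterial UMIs. Mgp was seen in 16 of 20 arterial and 183 of 238 other endothelial cells of Cherry_positive, but in 34 of 171 and 268 of 1374 cells of Cherry_negative. Free RNA from mesenchymal cells was not tested as its source.

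**Figure D2:**
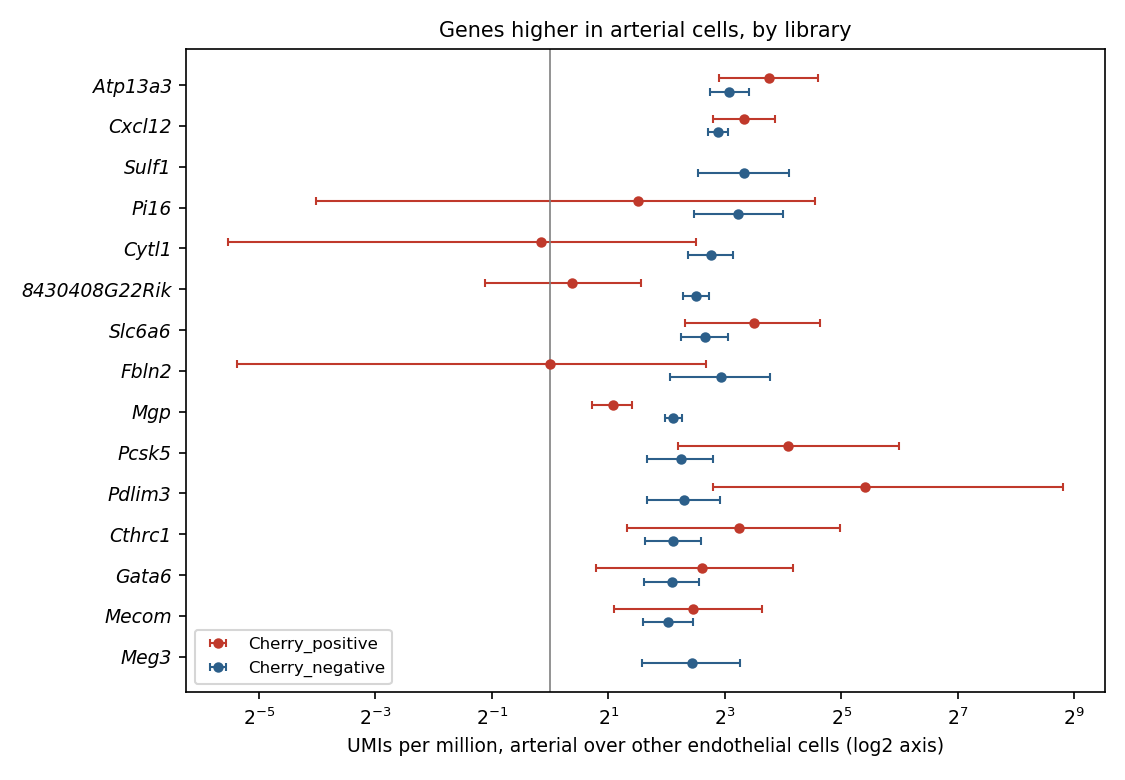
Ratio of CPM in arterial over other endothelial cells (log2 axis) for the 15 highest-ranked genes of the Cherry_negative library, in Cherry_positive (red, upper) and Cherry_negative (blue, lower); bars are 95% intervals for counting error. Sulf1 and Meg3 have no Cherry_positive point because 1 side held 0 UMIs; Atp13a3 and Cxcl12 lie between 7.36 and 13.5 in both libraries, and Cytl1, Fbln2 and 8430408G22Rik near 1 in Cherry_positive.

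The genes ranked lowest in Cherry_negative arterial cells included genes of airway and alveolar epithelium and of lymphatics. Sftpc, surfactant protein C of AT2 cells, had 2818 CPM in arterial against 24516 CPM in other endothelial cells, Scgb1a1, the secretoglobin of club cells, 309 CPM against 8075 CPM, and Lyz1, a lysozyme, 100.8 CPM against 1927 CPM. Cyp2f2, a cytochrome P450 of club cells, Chia1, a chitinase, and Ptgs2, or cyclooxygenase 2, were at 0 in arterial cells and at 92.7 CPM, 55.2 CPM and 54.2 CPM in the others, where Ptgs2 was at 405 CPM in venous cells. A single cell held 54.3% of the Scgb1a1 and 56.4% of the Cyp2f2 UMIs of those other cells, and in general capillary and Car4 capillary cells Scgb1a1 was at 334 and 325 CPM, near its arterial level. Hp, S100a4 and Lgals1 had 4.2, 4.2 and 71.4 CPM against 162, 127 and 802 CPM. Ccl21a, a chemokine of lymphatics whose symbol several gene IDs share, was at 0 against 213 CPM. An epithelial or immune marker sum reached the endothelial sum in 1 of 171 arterial cells and 56 of 1374 other endothelial cells of Cherry_negative. Without those cells Lyz1 and S100a4 were no longer lower, with log2 ratios of 0.17 and 0.78.

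Among gene groups, markers of Car4 capillary cells outside the rule were lower in arterial cells, with a median log2 ratio of -1.12 in Cherry_positive and -0.75 in Cherry_negative. In Cherry_positive 10 of 12 were lower, where 44.6% of all genes were. In Cherry_negative 11 of 12 were lower and 5 at least 2-fold lower, where 43.2% and 10.5% of all genes were. Among the 5 were Emp2, a tetraspan membrane protein, with 77.7 CPM against 520 CPM, and Prx, periaxin, with 58.8 CPM against 169 CPM. General capillary markers had medians of 0.63 and 0.46, with 8 of 10 higher in each library, where 55.4% and 56.8% of all genes were. Gpihbp1, which carries lipoprotein lipase to the capillary surface, had 1552 CPM in Cherry_negative arterial cells and 1158 CPM in the other endothelial cells. Here and for the gene groups below, the other endothelial cells pool all other endothelial classes. These values therefore do not set arterial cells against general capillary cells alone. Venous markers outside the rule had medians of 0.46 in Cherry_positive and -0.33 in Cherry_negative.

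Notch genes had a median log2 ratio of 0.44 over 17 members in Cherry_positive and 0.36 over 20 in Cherry_negative, with 5 and 1 members at least 2-fold higher, where 18.8% and 7.43% of all genes were. In Cherry_negative 14 of the 20 were higher, where 56.8% of all genes were. The receptors Notch1 and Notch4 had 170 CPM and 109 CPM in Cherry_negative arterial cells against 106 CPM and 70.5 CPM in other endothelial cells. Nrarp, a target that dampens Notch, had 242 CPM against 60.5 CPM in Cherry_positive and 111 CPM against 62.8 CPM in Cherry_negative. Hes1, another Notch target, had 210 CPM against 334 CPM in Cherry_positive and 244 CPM against 316 CPM in Cherry_negative, so these 2 targets lay on opposite sides.

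Genes of BMP and TGF-beta signalling had medians of 0.48 over 21 members in Cherry_positive and 0.52 over 27 in Cherry_negative, where 20 were higher and 5 at least 2-fold, against 56.8% and 7.43% of all genes. The inhibitory Smad6 had 869 CPM in Cherry_negative arterial cells against 380 CPM in other endothelial cells, Smad7 239 CPM against 116 CPM, and Id2, a BMP target, 309 CPM against 148 CPM. Vasoactive genes had medians of 0.59 and 0.45. Calcrl, the receptor subunit for adrenomedullin and CGRP, had 1227 CPM against 506 CPM in Cherry_positive and 1199 CPM against 758 CPM in Cherry_negative, and Ace, angiotensin-converting enzyme, 1146 CPM against 578 CPM and 1203 CPM against 760 CPM. Nos3, the endothelial nitric oxide synthase, had 0 of 13 UMIs in Cherry_positive arterial cells, and 42.0 CPM against 16.7 CPM in Cherry_negative.

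Of the elastic fibre and matrix list, 9 of 28 measured members were at least 2-fold higher in Cherry_positive arterial cells and 5 of 32 in Cherry_negative ones, where 18.8% and 7.43% of all genes were, with medians of 0.15 and 0.04. In each library 4 members were at least 2-fold lower, where 13.7% and 10.5% of all genes were. In Cherry_negative cells Fbln5, a fibulin needed for elastic fibre assembly, had 164 CPM against 41.8 CPM and Eln, elastin, 187 CPM against 90.6 CPM. Gap junction and contact genes had medians of 0.28 and 0.18. Gja1, connexin 43, was the member at least 2-fold lower in Cherry_negative, with 10.5 CPM against 34.9 CPM. Of the 16 measured members 5 were lower there, where 43.2% of all genes were. Smooth muscle markers summed to 129 CPM against 536 CPM in Cherry_positive and to 460 CPM against 246 CPM in Cherry_negative, where 2 arterial cells had 10 or more of their UMIs. Fibroblast markers had medians of 1.54 and 0.57, and pericyte markers 0.05 and 0.86. AT2 markers had medians of -2.00 and -2.37, and oxidative phosphorylation genes 0.00 and -0.01. Interferon gamma response genes, at 0.25 and 0.08, and type I interferon genes, at 0.29 and -0.19, did not set arterial cells far apart from other endothelium within a library.

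Arterial cells were also set side by side by whether a Gja5 UMI was seen. Gja5 is a gene of the rule, so cells without it were chosen through the other rule genes. A Gja5 UMI was seen in 38 Cherry_negative arterial cells and not in 133, whose median depths were 2964 and 2126 UMIs. Of the genes compared across this split, those outside the lists were chosen after their values had been seen, so the differences are a description. Atp13a3 was seen in 29 of the 38 cells with Gja5 and in 22 of the 133 without, at 564 CPM against 173 CPM. Mecom was seen in 23 and 21 cells, at 293 CPM against 80.3 CPM, and Gata6 in 20 and 17 cells, at 243 CPM against 65.4 CPM. Thinned to 2000 UMIs, which left 33 and 71 cells, the shares were 48.5% against 18.3% for Atp13a3, 54.5% against 12.7% for Mecom and 39.4% against 9.86% for Gata6.

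Several matrix genes were also higher in cells with Gja5. Fbln5 was at 386 CPM in cells with Gja5 and 71.4 CPM in cells without, Fbln2 at 136 CPM against 8.92 CPM, Pi16 and Sulf1 each at 164 CPM against 20.8 CPM, and Cxcl12 at 1679 CPM against 717 CPM. Each of the first 4 genes was seen in at most 10 of the 38 cells. Eln differed less, with 257 CPM against 158 CPM. The venous rule gene Vwf, von Willebrand factor, was seen in 21 of 38 cells with Gja5 and in 14 of 133 without. Acta2 and Tagln, smooth muscle genes, were also counted with Gja5, but over 96% of their UMIs there lay in 1 cell each.

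In cells without a Gja5 UMI other genes were higher in summed CPM, among them genes of epithelium and fibroblasts. Sftpa1, a surfactant protein, had 179 CPM in cells with Gja5 and 726 CPM in cells without, Lcn2 21.4 CPM against 318 CPM, and Mfap4, a matrix protein of fibroblasts, 78.6 CPM against 666 CPM. The shares of cells did not follow for Sftpa1, seen in 20 of 38 cells with Gja5 and 45 of 133 without, or Mfap4, in 11 and 26. Lcn2 was seen in 3 and 12 of these cells. A single cell held 44.3% of the Mfap4 UMIs of all Cherry_negative arterial cells. The part of RNA from other cells in these differences was not tested. Sema3c, a secreted semaphorin, had 107 CPM in cells with Gja5 and 848 CPM in cells without, and was seen in 12 of 38 and 80 of 133 cells. Scn7a, a sodium channel subunit, had 100.02 CPM with Gja5 and 399 CPM without. Car4, the carbonic anhydrase of the Car4 capillary rule, was seen in 1 of 38 cells with Gja5 and in 44 of 133 without. Dll4 was seen in 23 of 38 cells with Gja5 and in 53 of 133 without, and after thinning in 39.4% and 25.4%.

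The 20 Cherry_positive cells split into 12 with Gja5 and 8 without. Atp13a3 was seen in 8 of 12 and 1 of 8, Mecom in 4 of 12 and 0 of 8, and Sema3c in 2 of 12 and 8 of 8. For these 3 genes the direction is that found in Cherry_negative, while Fbln5, Fbln2, Pi16 and Sulf1 were seen in 1 of 12 cells each. Car4 went the other way, seen in 3 of 12 and 1 of 8 cells. Dll4 was seen in 5 of 12 and 3 of 8 cells, and after thinning in 30% and 37.5%, also the other way. In both libraries the arterial list outside the rule was more abundant with Gja5, at 11741 CPM against 6296 CPM in Cherry_positive and 15004 CPM against 8254 CPM in Cherry_negative.

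**Figure D3:**
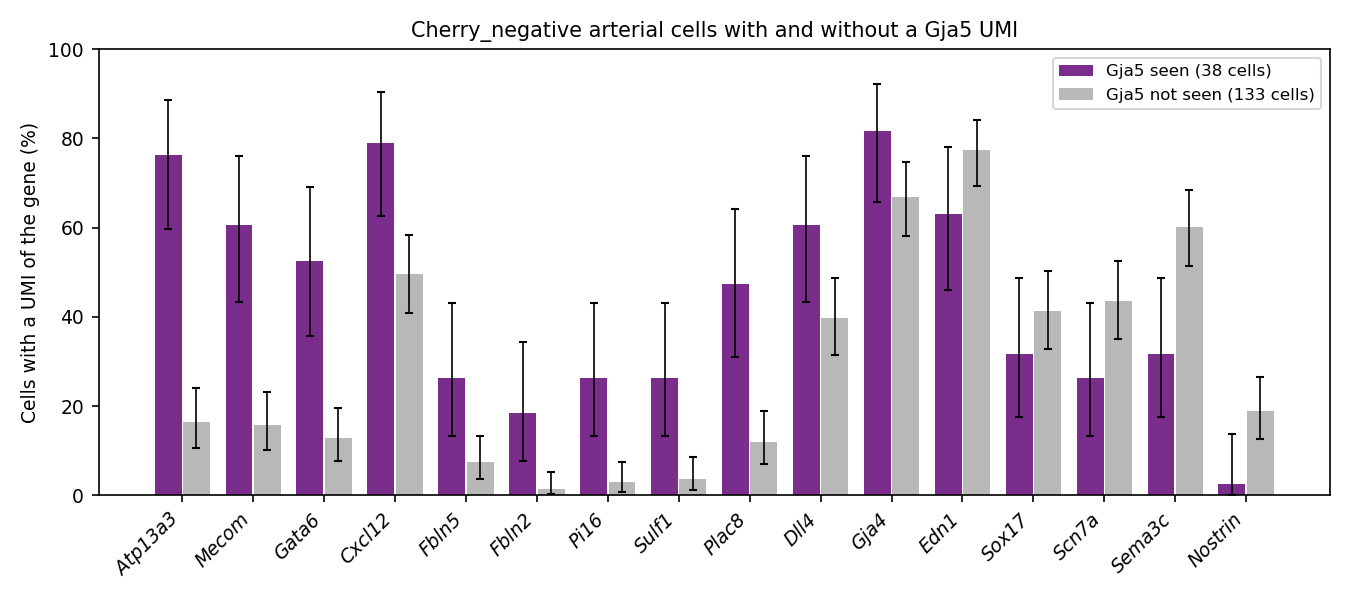
Share of Cherry_negative arterial cells with at least 1 UMI of a gene (percent, bars with exact binomial 95% intervals), in 38 cells with a Gja5 UMI (purple, left) and 133 without (grey, right). Atp13a3, Mecom, Gata6 and Plac8 are seen more often with Gja5 and Sema3c, Scn7a and Nostrin less often; Gja4 and Edn1 helped to choose the cells, and depth differs between the sets (median 2964 and 2126 UMIs).

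Between the libraries, 119 of 3009 genes with at least 30 UMIs were at least 2-fold higher in Cherry_positive arterial cells (3.95%) and 320 at least 2-fold lower (10.6%). The named genes that were higher comprised interferon-induced genes and genes with a large part of their UMIs in a single cell. Scaling by trimmed means would add -0.17 to every log2 ratio and leave 63 higher genes. The counts moved by over 1.5 times when the cell with most UMIs of each gene was left out, to 34 higher and 574 lower genes, and after thinning of cells, to 53 and 133.

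Cxcl10, a chemokine that draws CXCR3-bearing T cells, was higher and seen in a larger share of cells in Cherry_positive. Cxcl10 (chromosome 5, 92346638 to 92348889, minus strand) had 91 UMIs in 6 of 20 Cherry_positive arterial cells and 24 UMIs in 4 of 171 Cherry_negative ones. That is 1469 CPM (1183 to 1804 CPM) against 50.4 CPM (32.3 to 75.0 CPM), a ratio of 29.2 (18.4 to 47.8). A single cell held 50.5% of the Cherry_positive and another 79.2% of the Cherry_negative UMIs. Without the Cherry_positive cell the log2 ratio was 3.95, against 4.84 with it. After thinning, Cxcl10 was seen in 4 of 18 and 2 of 104 cells, and the intervals of these shares (6.41 to 47.6% and 0.234 to 6.77%) overlap. General capillary cells had 832 CPM against 148 CPM, and mesenchymal cells 3318 CPM against 178 CPM. Free RNA of the mesenchymal cells was not tested as a source of the UMIs in arterial cells.

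Guanylate-binding proteins and immunity-related GTPases, which defend cells against intracellular pathogens and are induced by interferon gamma, were higher in sum. The shares of cells with Iigp1, Igtp and Gbp2b were also higher, but their intervals overlap between the libraries, before and after thinning. Iigp1 had 1001 CPM (768 to 1283 CPM) in Cherry_positive and 252 CPM (209 to 301 CPM) in Cherry_negative arterial cells, a ratio of 3.97 (2.88 to 5.44), and was seen in 9 of 20 and 43 of 171 cells. Igtp had 517 CPM against 130 CPM, a ratio of 3.97 (2.51 to 6.18), in 8 and 27 cells. Gbp2b had 694 CPM against 153 CPM, a ratio of 4.53 (3.03 to 6.69), in 7 and 29 cells. After thinning, the shares of cells were 44.4% against 19.2% for Iigp1, 38.9% against 14.4% for Igtp and 33.3% against 18.3% for Gbp2b. The arterial cell with most Cxcl10 also held most Iigp1 and Igtp, and without it their log2 ratios were 1.48 and 1.13, against 1.996 and 1.999 with it. That cell held 35.5% of the Iigp1 and 50% of the Igtp UMIs of Cherry_positive, and another cell 44.2% of those of Gbp2b. AA467197 had 28 UMIs in 2 Cherry_positive cells and 8 UMIs in 1 Cherry_negative cell.

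The promoters of these genes are shown because an interferon response runs through short DNA elements near the start of its target genes. The interferon-stimulated response element is bound by IRF proteins and was searched as GAAA and GAAA with any 2 bases between them. The gamma-activated site was searched as TTCNNNGAA, and the NF-kB element as GGGA and TTCC with any 2 bases between them, each on both strands. Matches occur in 3.44%, 8.30% and 1.47% of all 32851 windows. The windows run from 250 bases before to 50 bases after the gene start, are from RefSeq on GRCm38.p6 and are written 5′ to 3′ on the strand of the gene, with matches in capitals. Cxcl10 (chr5:92348840-92349139, minus strand) has a response element at -213 and an NF-kB element at -159 from the gene start. Igtp (chr11:58199306-58199605, plus strand) has a gamma-activated site at -45 and a response element at -34. Irgm1 (chr11:48871371-48871670, minus strand) has response elements at -30 and -24, which overlap each other.
Cxcl10: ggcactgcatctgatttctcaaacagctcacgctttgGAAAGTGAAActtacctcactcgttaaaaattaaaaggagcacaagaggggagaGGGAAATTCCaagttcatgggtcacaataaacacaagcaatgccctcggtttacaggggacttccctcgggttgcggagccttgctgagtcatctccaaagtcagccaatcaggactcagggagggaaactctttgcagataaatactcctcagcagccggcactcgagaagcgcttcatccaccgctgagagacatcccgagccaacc
Igtp: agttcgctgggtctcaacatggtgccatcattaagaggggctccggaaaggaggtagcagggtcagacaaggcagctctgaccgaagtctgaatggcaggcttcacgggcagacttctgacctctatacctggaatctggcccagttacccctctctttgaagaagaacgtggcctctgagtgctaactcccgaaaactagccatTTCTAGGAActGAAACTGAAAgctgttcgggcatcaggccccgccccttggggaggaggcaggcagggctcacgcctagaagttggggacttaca
Irgm1: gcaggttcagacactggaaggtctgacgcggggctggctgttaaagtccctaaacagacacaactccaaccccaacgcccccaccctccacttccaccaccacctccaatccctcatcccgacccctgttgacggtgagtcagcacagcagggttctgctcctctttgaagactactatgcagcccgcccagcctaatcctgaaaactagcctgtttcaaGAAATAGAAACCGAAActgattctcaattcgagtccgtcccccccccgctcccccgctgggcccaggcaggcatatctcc
Gbp2b and Gbp2 hold a response element at -137 and -59 on the opposite strand, and no gamma-activated site in these windows. By gene, the response element occurs in 11 of the 21 interferon gamma genes with a promoter in the table and in 3.99% of all 27025 genes, and the gamma-activated site in 10 of the 21 and in 9.55% of all genes. Of the arterial rule genes with an entry, 1 of 6 holds the core of the Notch element of RBPJ, TGGGAA, which 28.3% of all genes hold. In Cxcl12 this core lies at -170, and in Dll4, Gja4, Gja5, Efnb2 and Edn1 these letters are not in the window.

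As a list, interferon gamma response genes had a median log2 ratio of 1.15 over 23 measured members, against 0.06 over all 6355 genes with at least 10 UMIs. Of these members 20 were higher and 14 at least 2-fold, where 54.1% and 11.8% of all genes were, and 3 were lower and 1 at least 2-fold, where 45.9% and 14% were. Irgm1 had 178 CPM in Cherry_positive against 50.4 CPM in Cherry_negative, Gbp2 323 CPM against 118 CPM, Gbp5 210 CPM against 31.5 CPM, and Cd274, the checkpoint ligand PD-L1, 242 CPM against 16.8 CPM from 15 and 8 UMIs. Irf1, a transcription factor of the pathway, had 436 CPM against 336 CPM. In general capillary cells the median was 1.30 over 28 members, of which 27 were higher (46.1% of all genes), 17 at least 2-fold higher and none at least 2-fold lower, against 5.05% and 8.39% of all genes. In Car4 capillary cells it was 0.60 over 27 members, of which 26 were higher and 1 lower (52% and 48% of all genes) and 9 at least 2-fold higher (4.75%) and none at least 2-fold lower (9.99%). The difference between these classes was not tested.

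A few cells held much of the sum. Summed over the list, arterial cells had 8558 CPM in Cherry_positive and 3625 CPM in Cherry_negative, while the median cell had 2701 CPM and 2298 CPM. In Cherry_positive 3 of the 20 cells held 71.5% of the list's UMIs and the highest reached 41288 CPM. In Cherry_negative the 3 highest of 171 cells held 12.3% and the highest reached 32537 CPM. With the 3 highest cells of each library left out, the sums were 3076 CPM and 3250 CPM, but 3 cells are a larger part of 20 than of 171. The lower and upper quartiles over cells were 1745 and 4928 CPM in Cherry_positive and 1370 and 3896 CPM in Cherry_negative, so they were higher in Cherry_positive, as was the median. Cells with at least 10 UMIs of the list were 7 of 20 and 52 of 171, and after thinning 5 of 18 and 23 of 104. Without the cell with most Cxcl10 the median log2 ratio of the list was 0.59. Over the other settings tried it ranged from 0.55 to 2.29.

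**Figure D4:**
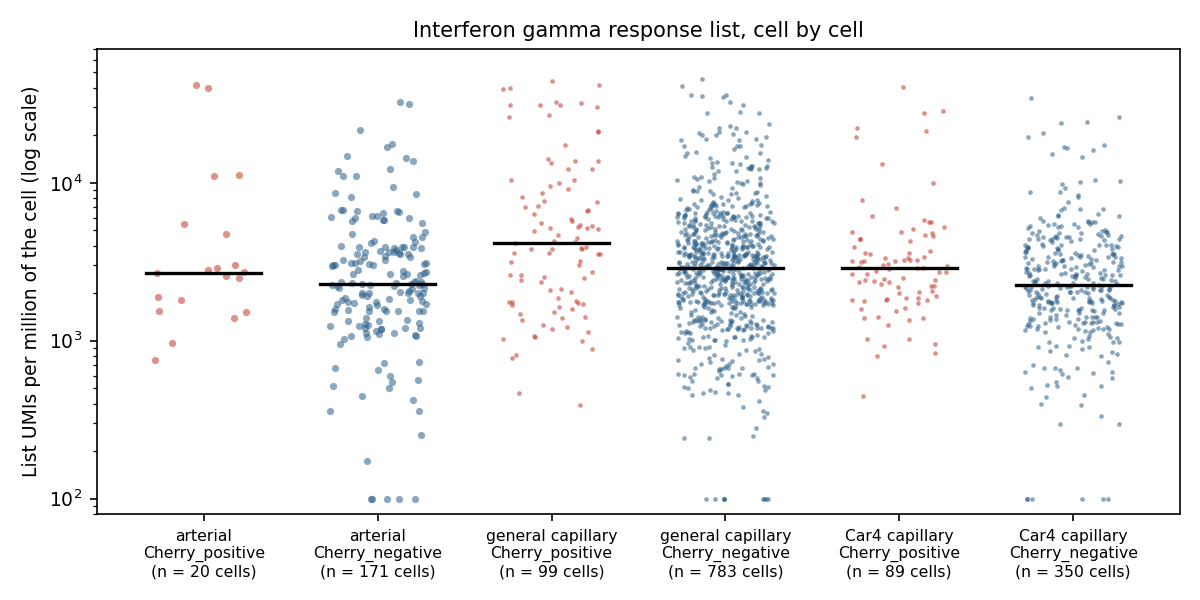
CPM of the interferon gamma response list in each cell (log axis; cells with 0 are drawn at 100), for arterial, general capillary and Car4 capillary cells of Cherry_positive (red, left of each pair) and Cherry_negative (blue); black lines are medians over cells. The arterial medians are 2701 and 2298 CPM, and few Cherry_positive arterial cells, up to 41288 CPM, lie far above them.

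Genes of the type I interferon response were also higher in sum and in the median cell. Their median log2 ratio was 0.72 over 21 members, of which 15 were higher and 9 at least 2-fold, where 54.1% and 11.8% of all genes were, and 6 were lower. It was 0.54 without the cell with most Cxcl10 and ranged from 0.14 to 0.999 over the settings tried. The median cell had 8052 CPM of the list in Cherry_positive and 6138 CPM in Cherry_negative, and without the 3 highest cells of each library the sums were 7700 CPM and 6410 CPM. Isg15, a ubiquitin-like protein, had 436 CPM against 199.5 CPM, and Ifitm3, a membrane protein that blocks virus entry, 7509 CPM against 5044 CPM, which makes Ifitm3 the larger part of the list's UMIs. Bst2, or tetherin, had 501 CPM against 544 CPM.

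Genes of antigen presentation by MHC class I were higher in sum and in the median cell. Of 22 members 19 were higher and 3 at least 2-fold, where 54.1% and 11.8% of all genes were, with a median of 0.44, and the median cell had 18458 CPM of the list in Cherry_positive and 15601 CPM in Cherry_negative. Without the 3 highest cells of each library the sums were 15991 CPM and 16713 CPM, again with a larger part of the Cherry_positive cells removed. The lower and upper quartiles over cells were 12110 and 23269 CPM in Cherry_positive and 11103 and 22336 CPM in Cherry_negative. The median log2 ratio was 0.21 without the cell with most Cxcl10 and ranged from -0.10 to 1.21 over the settings tried. B2m, the light chain, had 5765 CPM against 4545 CPM, and Tap2, of the peptide transporter, 355 CPM against 160 CPM. MHC class II had a median of 0.37 over 6 members, and without the cell with most Cxcl10 it was -0.25, so no direction can be given. Cd74, the invariant chain, had 1566 CPM against 594 CPM in sum but was seen in 7 of 20 and 55 of 171 cells. For this list a single cell held 55.9% of the Cherry_positive UMIs.

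Several other named genes had most of their Cherry_positive UMIs in 1 cell. Ccl21a had 119 UMIs in 4 Cherry_positive arterial cells and none in Cherry_negative. That is 305-fold above the floor of 3 UMIs set for Cherry_negative, and the interval of the ratio starts at 244. Of its Cherry_positive UMIs, 97.5% lay in 1 cell. That cell had 12 UMIs of the arterial sum and 6 of the lymphatic sum. Clu, clusterin, had all its 24 UMIs in 1 cell, and Igfbp3, an insulin-like growth factor binding protein, 92.3% of its 13. Without its top cell in each library Clu had a log2 ratio of -2.48.

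Mfap4, a microfibril protein, Gpx3, a secreted glutathione peroxidase, Serping1, the C1 inhibitor, and Fhl1, a LIM protein, shared another cell. It held 73.9%, 49.1%, 64.7% and 90.0% of their Cherry_positive UMIs and 148 UMIs of the fibroblast marker list, with an endothelial sum of 5 UMIs. Gpx3 was seen in 8 of 20 Cherry_positive and 15 of 171 Cherry_negative cells, and Serping1 in 6 and 10. The intervals of these shares do not overlap, but after thinning they do. Over the settings tried the log2 ratio ranged from -0.695 to 3.11 for Gpx3 and from 0.946 to 4.06 for Serping1. Fibroblast markers measured between the libraries had a median of 1.19 over 8 members, 7 of them higher, where 54.1% of all genes were. The median ranged from -1.17 to 1.64 over the settings tried. These markers summed to 3423 CPM in Cherry_positive and 1334 CPM in Cherry_negative. All 13 markers had a UMI in both libraries, and cells with at least 10 UMIs of them were 3 of 20 and 8 of 171. Without these cells Mfap4 and Fhl1 had log2 ratios of -0.23 and -0.86, and the interferon gamma list 1.09. The elastic fibre list, which also contains Mfap4, had a median of 0.39. The part of fibroblast RNA in its value was not tested.

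Among the genes lower in Cherry_positive arterial cells, the named ones rest on few Cherry_positive UMIs. The gene 8430408G22Rik had 96.9 CPM in Cherry_positive (35.6 to 211 CPM) and 544 CPM in Cherry_negative (480 to 614 CPM), a ratio of 0.178. Klf9, a glucocorticoid-induced transcription factor, had 48.4 CPM against 271 CPM, seen in 3 of 20 and 77 of 171 cells. Plpp1, a lipid phosphatase, had 96.9 CPM against 391 CPM, Cyp4b1, a cytochrome P450 of the lung, 161 CPM against 462 CPM, and Npc2, a cholesterol carrier, 129 CPM against 420 CPM. Npc2 was at 948 CPM in Cherry_positive and 4169 CPM in Cherry_negative epithelial cells, and AT2 markers summed to 291 CPM in Cherry_positive and 4225 CPM in Cherry_negative arterial cells, with 4 of the 9 at 0 in Cherry_positive. The part of epithelial RNA in these differences was not tested.

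Gdf15, a stress-induced cytokine, had 2 UMIs in 1 Cherry_positive cell and 100 UMIs in 46 Cherry_negative cells, a ratio of 0.154 (0.0184 to 0.570). Armcx3, Adgrl3 and Fam173a had no UMI in the 20 Cherry_positive cells and 52, 51 and 43 UMIs in Cherry_negative ones. With the floor of 3 UMIs in place of 0 they were 2.25-fold, 2.21-fold and 1.86-fold lower, and the intervals of their ratios reach up to 0.565, 0.577 and 0.689. Cytl1 had 1 UMI against 97, all from 1 and 8 cells. Gm26870 had 4 UMIs against 128 and Ndufb3, a subunit of respiratory complex I, 2 against 84. In general capillary cells the ratios of Gdf15, Armcx3, Adgrl3, Fam173a and Ndufb3 lay between 0.675 and 0.835.

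**Figure D5:**
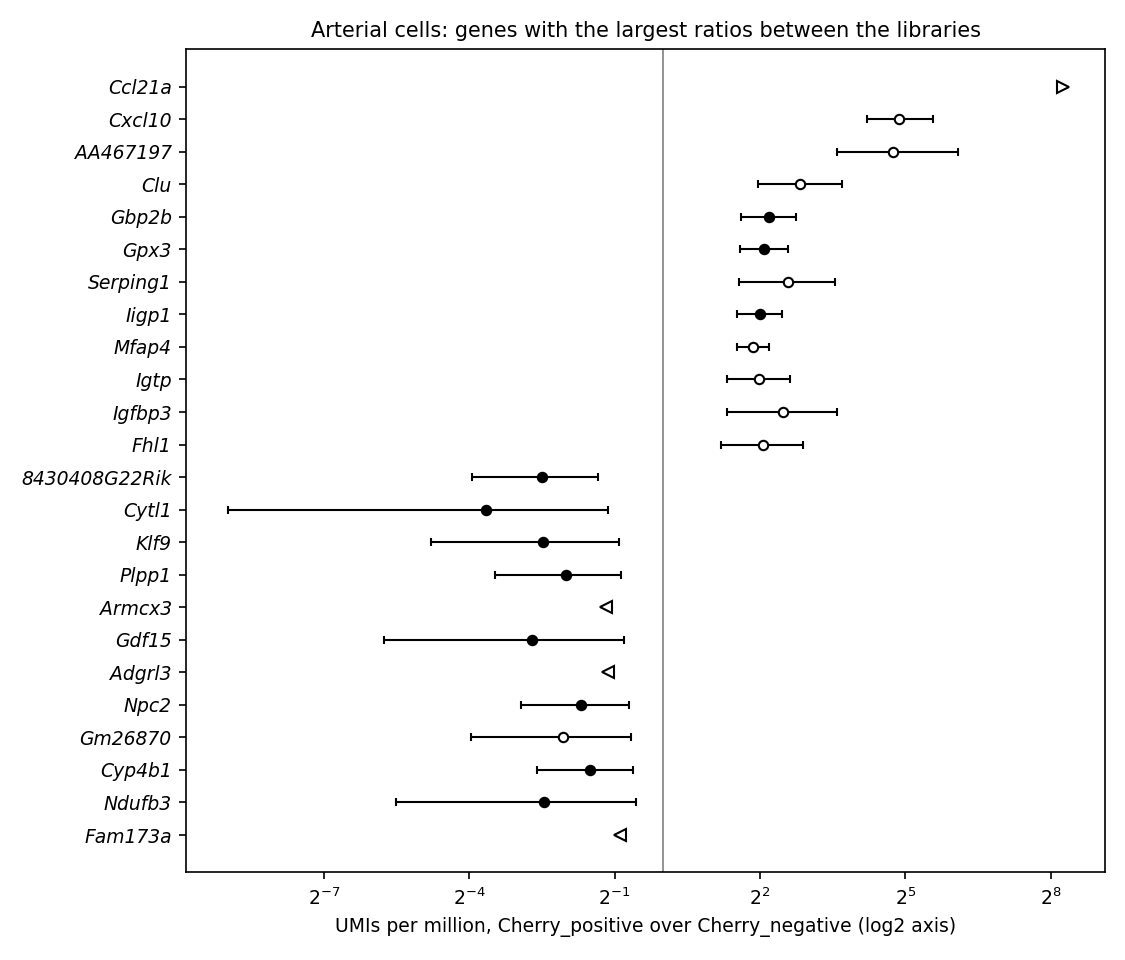
Ratio of CPM in Cherry_positive over Cherry_negative arterial cells (log2 axis) for the 12 genes ranked highest and the 12 ranked lowest; bars are 95% intervals for counting error, open circles are genes with at least 3 Cherry_positive UMIs of which 50% or more lie in 1 cell, and triangles are genes at 0 in 1 library, set at the floor of 3 UMIs there. Cxcl10 lies at 29.2, Gbp2b, Iigp1 and Igtp near 4, and the lower genes have wide intervals.

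Genes that define arteries lay on both sides. Arterial genes outside the rule had a median of -0.23 over 27 members, against 0.06 over all genes. Of these 15 were lower, where 45.9% of all genes were, and 3 at least 2-fold higher and 3 at least 2-fold lower, where 11.8% and 14% were. Notch genes had a median of 0.05 over 16, vasoactive genes -0.06 over 15, genes of the shear stress response -0.17 over 16, BMP and TGF-beta genes -0.20 over 18 and gap junction and contact genes -0.29 over 11. Cxcl12 had 791 CPM in Cherry_positive (585 to 1046 CPM) and 999.7 CPM in Cherry_negative (912 to 1094 CPM). General capillary markers outside the rule were lower for 10 of 10 members, where 45.9% of all genes were, with a median of -0.48. In general capillary cells 10 of 10 were lower too, where 53.9% of all genes were, with a median of -0.58.

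Of the remaining groups, acute phase genes had a median of 1.08 over 7 members, which ranged from 0.049 to 1.38 over the settings tried. Saa3, a serum amyloid protein, had 10 UMIs in Cherry_positive arterial cells and 0 in Cherry_negative ones, and Serpina3g, a serpin, 920 CPM against 439 CPM. Lcn2, lipocalin 2, had 32.3 CPM against 231 CPM. Genes of activated or angiogenic endothelium had a median of 0.45 with 14 of 16 higher, where 54.1% of all genes were, among them Esm1, or endocan, with 242 CPM against 90.3 CPM. The median of this list ranged from -0.30 to 0.78 over the settings tried, so its sign depended on the setting. Glycolysis and hypoxia genes had a median of 0.45, genes of the unfolded protein response 0.32 and VEGF and angiopoietin genes -0.02. Over the settings tried the glycolysis and hypoxia median ranged from 0.002 to 0.73 and that of the unfolded protein response from 0.054 to 0.69. The median of metallothionein and oxidative stress genes was 0.58, but it was -0.13 with Edn1 and Efnb2 left out of the rule, -0.16 without cells with 10 or more fibroblast marker UMIs and -0.085 without the top cell of each gene, so no direction can be given. Immediate early genes were higher for 12 and lower for 13 members, where 54.1% and 45.9% of all genes were. Medians were 0.07 for p53 targets, 0.06 for oxidative phosphorylation genes, -0.05 for leukocyte adhesion molecules, -0.64 for chemokines and cytokines and -0.44 over 7 members for cell cycle genes. The chemokine median was -0.16 with the 2 members at 0 set at the floor of 3 UMIs, or at no difference where the floor was higher. Car4 capillary markers stood at -0.15, venous markers at 0.23, smooth muscle markers at -1.23 (-0.71 by the same setting), pericyte markers at -0.83 over 3 members and AT1 markers at 0.18 over 3 members. Immune markers summed to 32.3 CPM in Cherry_positive and 622 CPM in Cherry_negative, red cell markers to 226 CPM and 12.6 CPM, mesothelial markers to 0 CPM and 4.2 CPM, and keratins of epithelium and carcinoma to 16.1 CPM and 21.0 CPM.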

How the data were processed

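Single cells of dissociated mouse lung were captured with a Chromium 3′ kit and sequenced on a HiSeq4000, per the labels' protocols, with 1 library for each of the Cherry_positive and Cherry_negative sorts. The deposited values are raw UMI counts per gene and barcode. Cell Ranger 2.1.1, R 4.0.3, Seurat 4.0.2 and build mm10 are listed, without roles, in the submitters' processing notes. Barcodes with at least 500 genes and at most 10% mitochondrial UMIs were kept, 1770 of 1826 and 2811 of 2861. For each class the UMIs of its cells were added up per gene and scaled to the class total. Ratios compare genes with at least 30 UMIs over both sums, and list medians use genes with at least 10 UMIs and 0.5 added to each count. Intervals are exact Poisson or binomial intervals at 95% and cover counting error only. No p-value was computed, since each group was 1 library.

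Named between the libraries were the 12 higher and 12 lower genes ranked by the interval bound nearest 1, with at least 20 CPM in either sum. Between arterial and other endothelial cells they were the 15 highest and 10 lowest in Cherry_negative. Mitochondrial, ribosomal, haemoglobin and immunoglobulin genes and genes at least 10 times higher in another lineage were left out. The cells, lists and tests were chosen with earlier results of these data known. Alternatives changed the rule, filters, depth, scaling and the cells included. The computations used Python 3.11.15, numpy 2.4.6, scipy 1.17.1, pandas 2.3.3, scanpy 1.11.5 and matplotlib 3.10.9, and were tested on simulated data. Gene positions are from GENCODE M21, and promoters from RefSeq. A few genes of the lists are not reported here.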

Additional observations from a re-analysis of the deposited data

Results flagged for a closer look

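For 2 genes the direction of a contrast differed between libraries or classes, and neither difference was tested. Hp, haptoglobin, had a log2 ratio of arterial over other endothelial cells of 0.076 in the Cherry_positive library, from 2 arterial UMIs, and -4.95 in the Cherry_negative library, also from 2. Fhl1 had a log2 ratio of Cherry_positive over Cherry_negative of 2.07 in arterial cells and -0.84 in general capillary cells, and 90.0% of its Cherry_positive arterial UMIs lay in 1 cell.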

How the results depend on the processing

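No paired analysis was possible because each group was 1 library. Of the summary results, 203 values stayed close to those reported and 35 moved. For single genes and other lists 1508 stayed, 206 moved and 32 changed sign. The cause of a change was not tested unless stated. Genes at least 2-fold higher in Cherry_positive arterial cells, 119 as reported, numbered 206 with an arterial sum of at least 1 UMI, 53 in thinned cells, 556 among genes with at least 10 UMIs, 34 without the top cell of each gene and 63 with trimmed mean scaling. Lower genes, 320 as reported, numbered 575, 133, 674 and 574 under the first 4 of these, and 173 with Edn1 and Efnb2 left out of the arterial sum. Leaving out the top cell removes 1 of 20 against 1 of 171 cells by construction. An arterial sum of at least 1 UMI added 1 Cherry_positive and 5 Cherry_negative cells.

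Against other endothelial cells, the 338 genes higher in Cherry_negative became 649 without Edn1 and Efnb2, 687 with at least 10 UMIs and 200 without top cells. In Cherry_positive the 401 higher genes became 713, 1041 and 191 under these settings, 168 in thinned cells and 235 with trimmed means. The 651 lower genes became 268 without Edn1 and Efnb2, 401 in thinned cells and 1023 with trimmed means. Comparisons with 1 class were chosen after seeing the data. With general capillary cells the lower genes in Cherry_negative numbered 337, and in Cherry_positive 117 were higher and 220 lower. With venous cells these counts were 193, 48 and 32. With Car4 capillary cells 139 were higher and 345 lower in Cherry_positive, and the arterial list had a median of 2.01 in Cherry_negative.

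Without Edn1 and Efnb2 the rule found 6 and 58 cells, 2.33% and 3.75% of endothelial cells, and a margin of 2 UMIs gave 8.93% in Cherry_negative. The interferon gamma list then had a median of 2.29 and MHC class II 2.13 without those 2 genes. Metallothioneins fell to -0.13 there, to -0.16 without fibroblast-rich cells and to -0.085 without top cells, against 0.58.

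Log2 ratios that changed sign between the libraries, without Edn1 and Efnb2, were those of Clu (-1.43), Fhl1 (-1.81), Gpx3 (-0.70) and Mfap4 (-0.89). With at least 1000 genes and at most 5% mitochondrial UMIs they were Clu (-2.70), Fhl1 (-0.83) and Mfap4 (-0.065). Without cells rich in fibroblast markers, a setting chosen after seeing the data, Fhl1 had -0.86 and Mfap4 -0.23. Clu had -2.57 with a margin of 2 UMIs and -2.48 without its top cells, and Fhl1 -0.77 with an endothelial sum of at least 8 UMIs and -0.71 without its top cells. For arterial over other endothelial cells, the comparison with Car4 capillary cells gave 6.02 for Ccl21a, 0.52 for Lgals1 and 0.51 for Sftpc in Cherry_positive. With general capillary cells Ccl21a had 0.62 in Cherry_positive, and Lgals1 0.36 and S100a4 1.51 in Cherry_negative. With venous cells Cthrc1 had -0.13 and Cytl1 -0.032 in Cherry_negative, and Mgp -0.17 and Sftpc 0.76 in Cherry_positive. Without cells mixed with epithelial or immune transcripts Lyz1 had 0.17 and S100a4 0.78 in Cherry_negative and Sftpc 0.65 in Cherry_positive. An arterial sum of at least 1 UMI gave 2.57 for Lgals1 and 3.94 for S100a4 in Cherry_positive, and leaving out top cells 0.33 for Sftpc. That arterial sum added 1 Cherry_positive cell. None of the 20 reported cells held S100a4, so its arterial UMIs under this setting all came from the added cell. The Cherry_positive arterial values rest on 61929 UMIs in 20 cells.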
